A study of Mus musculus with 2 samples.

Results

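The 5 genes described here, *Pcsk1*, *Pcsk2*, *Pcsk1n*, *Cpe* and *Pam*, encode enzymes and an inhibitor that turn prohormones into active peptides. They were chosen by symbol from the 27998 genes listed for both libraries, and all 5 had unique molecular identifiers (UMIs, each tagging 1 captured RNA molecule) in both tumors. The data are single-cell RNA-seq of small cell lung cancer (SCLC) from TKO mice, with 1 tumor from each of 2 mice, called TKO1 and TKO2, and 1 library on the 10x Chromium per tumor. Both mice were labeled Rb-/-, Trp53-/- and Rbl2-/- with a Rosa26 membrane-Tomato or membrane-GFP reporter, and were 8 to 9 months old. The paper describes these genes as floxed and conditionally deleted in lung cells by Cre. The mixed background of the mice combined 129/SvOla, 129/SVJ and C57BL/6. Tumors were taken 7 months after Adeno-CMV-cre, a virus that expresses Cre from a promoter active in many cell types, so the cell of origin is not set by the model. Live cells were sorted by exclusion of DAPI, with no marker of tumor cells. No library from normal lung or from a treated animal is part of the comparison.

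Peptide hormones are made as long precursors that enter the regulated secretory pathway. In the secretory granule, the convertases PC1/3 (*Pcsk1*) and PC2 (*Pcsk2*) cut after pairs of basic residues, carboxypeptidase E (*Cpe*) trims these residues off, and peptidylglycine alpha-amidating monooxygenase (*Pam*) converts an end glycine into an amide. ProSAAS (*Pcsk1n*) is a granule protein that inhibits PC1/3. Neuroendocrine cells of the lung and SCLC are known for granules that hold such peptides, among them calcitonin gene-related peptide and gastrin-releasing peptide.

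The promoters of the 3 genes with the widest difference between the tumors are shown first, from 250 bases before to 50 bases after the start of the transcript, as RefSeq gives them for GRCm38.p6. Capitals mark TGACGTCA (the cAMP response element), its core TGACG and CAGCTG (an E box), each searched on both strands.
Pcsk1, chr13:75089607-75089906, plus strand: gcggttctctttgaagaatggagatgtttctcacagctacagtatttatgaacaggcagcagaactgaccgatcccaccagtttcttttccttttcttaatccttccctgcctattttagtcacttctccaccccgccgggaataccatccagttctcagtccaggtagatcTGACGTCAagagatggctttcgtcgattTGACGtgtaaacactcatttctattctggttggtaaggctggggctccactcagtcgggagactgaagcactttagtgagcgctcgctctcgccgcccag
Pcsk2, chr2:143545883-143546182, plus strand: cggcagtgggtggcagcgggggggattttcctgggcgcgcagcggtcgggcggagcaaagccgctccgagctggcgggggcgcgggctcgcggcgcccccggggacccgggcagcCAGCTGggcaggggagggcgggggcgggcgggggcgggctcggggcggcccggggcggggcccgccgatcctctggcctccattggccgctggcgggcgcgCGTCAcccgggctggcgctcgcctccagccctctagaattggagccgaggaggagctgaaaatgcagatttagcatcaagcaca
Pam, chr1:98095597-98095896, minus strand: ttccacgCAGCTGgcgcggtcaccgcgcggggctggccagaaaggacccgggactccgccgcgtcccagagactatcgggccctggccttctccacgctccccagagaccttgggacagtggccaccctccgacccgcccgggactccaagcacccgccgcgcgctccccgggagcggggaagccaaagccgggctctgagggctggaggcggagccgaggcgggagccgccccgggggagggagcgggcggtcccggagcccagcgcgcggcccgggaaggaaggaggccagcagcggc
The window of *Pcsk1* holds 1 TGACGTCA, an element present in 1.79% of the 32851 promoters of the same length. It holds 3 matches of TGACG, of which the TGACGTCA makes up a pair by overlap, and no CAGCTG. The core is in 20.8% of all promoters. *Pcsk2* has 1 CAGCTG and 1 TGACG, and this window of *Pam* has 1 CAGCTG, which 16.3% of all promoters hold. *Pam* has a further RefSeq entry, chr1:98095583-98095882, which holds no CAGCTG and has 77.3% G and C. *Pcsk1* has 49.3% G and C in this window, against 76.3% for both *Pcsk2* and the *Pam* window shown. An entry was found for 4 of the 5 genes, with none for *Cpe*. The window of *Pcsk1n*, not shown, holds 0 matches of TGACGTCA, TGACG and CAGCTG and has 58.7% G and C. The matches describe the letters in these windows, and binding was not measured.

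The table of TKO1 holds 4514 barcodes and that of TKO2 3816, of which 3193 and 3568 had more than 500 detected genes and were retained. Retained cells had a median of 1223 UMIs in TKO1 and 1960 in TKO2. Clusters were named from marker genes, which put 2990 cells of TKO1 and 3380 of TKO2 in the neuroendocrine-like class. The 18 neuroendocrine markers summed to 6365 UMIs per 1000000 of the class (CPM) in these cells of TKO1 and to 2837 CPM in those of TKO2, against 1252 and 968 CPM in the macrophage-like cells (98 and 121 cells). TKO1 also had 105 club-like cells. TKO2 had a cluster of 67 cells in which 7 club markers and 12 neuroendocrine markers met the fold limits used for naming, and it was left unnamed. The libraries share 22 barcodes, 11 of them retained in both. The deleted genes still gave UMIs, with 77.1 and 15.2 CPM for *Rb1*, 49.0 and 62.9 CPM for *Trp53*, and 9.46 and 1.80 CPM for *Rbl2* in the neuroendocrine-like cells of TKO1 and TKO2. A UMI does not tell whether the deleted exons were in the transcript, so the deletions are not checked by it. With 1 library per tumor, no test was possible, every interval covers counting error only, and tumor, mouse and library cannot be told apart.

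The first question was how far the 2 tumors differ in the machinery of prohormone processing. The neuroendocrine-like cells of TKO1 had far more RNA for both convertases and the amidating enzyme than those of TKO2, moderately more for proSAAS, and a nearly even level of carboxypeptidase E. For *Pcsk1* (ENSMUSG00000021587, chromosome 13, 75089826 to 75134861 of GRCm38), TKO1 had 168 CPM (exact Poisson 95% interval 156 to 181, from 711 UMIs) and TKO2 had 8.38 CPM (6.47 to 10.7, 65 UMIs). This is a 20.1-fold difference (exact 95% interval 15.6 to 26.3). For *Pam* (ENSMUSG00000026335, chromosome 1, 97795114 to 98095646), the levels were 279 CPM (263 to 295) in TKO1 and 18.2 CPM (15.3 to 21.4) in TKO2, which is 15.3-fold (12.9 to 18.4). The level of *Pcsk2* (ENSMUSG00000027419, chromosome 2, 143546156 to 143816285) was 78.5 CPM (70.3 to 87.5) in TKO1 against 7.99 CPM (6.13 to 10.2) in TKO2, which is 9.83-fold (7.47 to 13.1). These 3 genes lay near 10-fold or above, and the intervals of the tumors are far apart for each.

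The inhibitor and the carboxypeptidase differed less. *Pcsk1n* (ENSMUSG00000039278, chromosome X, 7919822 to 7924410) had 624 CPM (600.03 to 648) in TKO1 and 191 CPM (182 to 201) in TKO2, which is 3.26-fold (3.06 to 3.48). The level of *Cpe* (ENSMUSG00000037852, chromosome 8, 64592542 to 64693054) was 432 CPM (413 to 453) in TKO1 against 281 CPM (269 to 293) in TKO2, which is 1.54-fold (1.45 to 1.64). The median of all genes was itself shifted toward TKO1, by 0.37 on the log2 scale. After this shift was subtracted, the log2 difference was 3.96 for *Pcsk1*, 3.57 for *Pam*, 2.93 for *Pcsk2*, 1.34 for *Pcsk1n* and 0.25 for *Cpe*. On this relative scale 4 of the 5 genes were at least 2-fold higher in TKO1, as were 23.2% of all 12925 genes with at least 10 UMIs, and 0 of the 5 were at least 2-fold higher in TKO2, as were 18.7% of all genes.

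**Figure D1:**
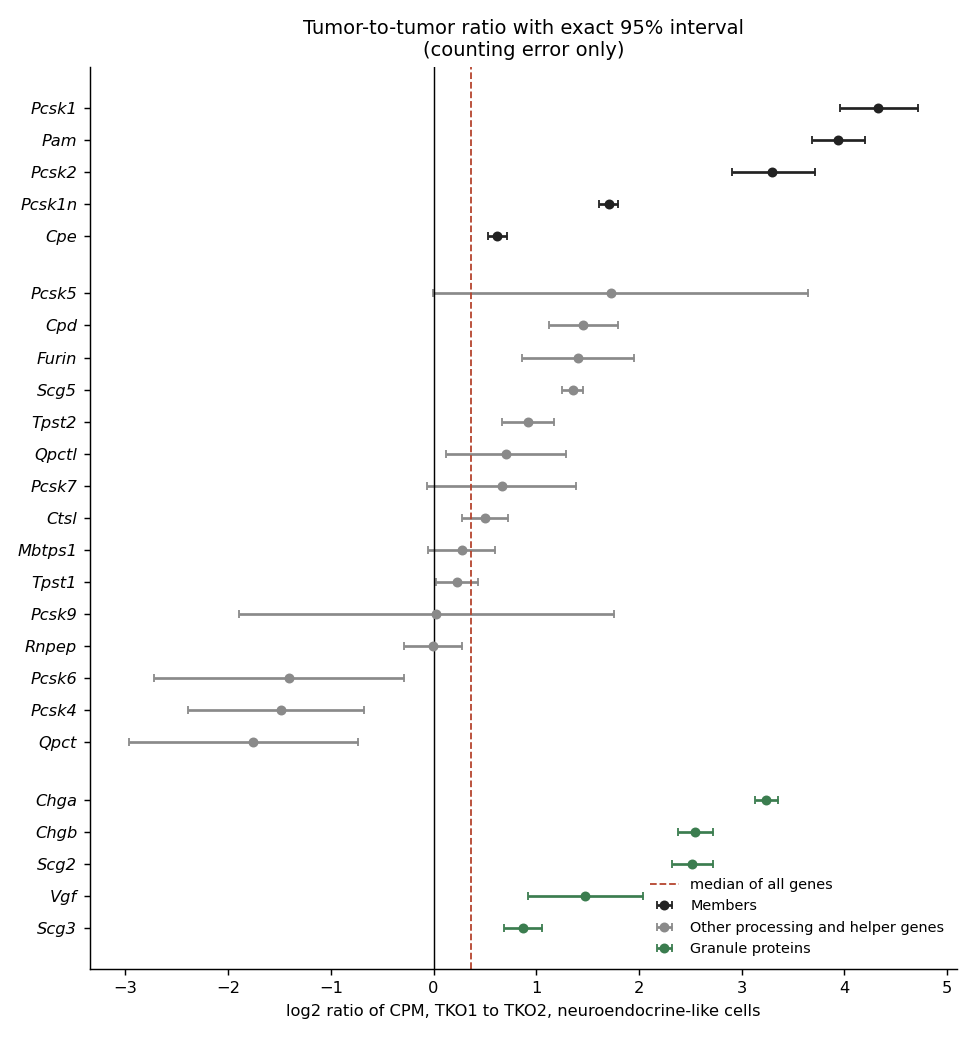
Log2 ratio of CPM between TKO1 and TKO2 in neuroendocrine-like cells (x axis) for the 5 genes (black), 15 other processing genes (grey) and 5 granule proteins (green), with exact 95% intervals of counting error and the median of all genes as a dashed line at 0.37. *Pcsk1*, *Pam* and *Pcsk2* lie between 3.30 and 4.33, *Cpe* lies at 0.62 close to the dashed line, and the other processing genes spread from -1.76 to 1.72.

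The ratio between 2 of these genes within a tumor does not depend on how the libraries are scaled, and it shows the change in balance. There were 0.389 UMIs of *Pcsk1* per UMI of *Cpe* in TKO1 and 0.0298 in TKO2, so the balance differed 13.0-fold (10.0 to 17.2). Per UMI of its inhibitor *Pcsk1n*, *Pcsk1* differed 6.15-fold (4.73 to 8.12), with 0.270 in TKO1 and 0.0438 in TKO2. The balance of the convertases also differed, with 2.14 UMIs of *Pcsk1* per UMI of *Pcsk2* in TKO1 and 1.05 in TKO2, a 2.04-fold change (1.38 to 3.01). *Pcsk1* and *Pam* differed most alike, since their balance changed 1.31-fold with an interval of 0.953 to 1.81 that includes 1. The ratio of *Pcsk1n* to *Cpe* went from 1.44 in TKO1 to 0.680 in TKO2. In TKO2 the values of *Pcsk1*, *Pcsk2* and *Pam* rest on 65, 62 and 141 UMIs. These 3 genes were not separable there from the macrophage-like cells described below. The part of free RNA in their ratios was not tested.

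Genes whose exons overlap those of *Pcsk2* or *Pam* may touch their values. The exons of *Pcsk2os1* overlap those of *Pcsk2* on the other strand, and the counting of strand is not given in the sources used here. *Pcsk2os1* had 201 UMIs (47.6 CPM) in TKO1 and 61 UMIs (7.86 CPM) in TKO2, which is 6.05-fold higher in TKO1 (4.52 to 8.19). The antisense gene therefore had 0.605 UMIs per *Pcsk2* UMI in TKO1 and 0.984 in TKO2, and how reads were divided between the pair was not tested. *Eras*, which overlaps *Pcsk1n*, and *Pcsk2os2* had 0 UMIs in these cells of both tumors. *B230216N24Rik* overlaps exons of *Pam* on the same strand and is not among the genes listed for the libraries, so its part in the *Pam* counts was not tested.

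The next question was in which cells of each tumor the genes were detected. All 5 genes had their highest level of TKO1 in the neuroendocrine-like cells, with lower levels in club-like and macrophage-like cells. The order by level in TKO1 was neuroendocrine-like, club-like and macrophage-like for *Pcsk1* at 168, 91.5 and 13.98 CPM. For *Pcsk1n* the levels in the same order were 624, 239 and 154 CPM. For *Pam* they were 279, 117 and 69.9 CPM. *Pcsk2* had 78.5 CPM, then 15.3 CPM from 3 UMIs, then 0 UMIs in the macrophage-like cells. A count of 0 allows up to 25.8 CPM there (exact upper limit). *Cpe* had 432 CPM, with 81.4 CPM (46.5 to 132) in club-like and 90.9 CPM (48.4 to 155) in macrophage-like cells, whose intervals overlap. The intervals of club-like and macrophage-like cells also overlap for *Pcsk1n* (176 to 318 and 96.4 to 233) and *Pam* (74.1 to 175 and 33.5 to 129), and those of *Pcsk1* are 54.2 to 145 and 1.69 to 50.5. UMIs of 16 of the 18 neuroendocrine markers were found in the club-like cells, at a sum of 1789.8 CPM. The macrophage-like cells of TKO1 also had UMIs of 16, at 1252 CPM. By the rule that named the clusters, 2 of these markers were at least 2-fold higher in club-like than in immune-like cells. The part of free RNA in the values of the club-like cells was not tested.

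Macrophages are not known for secretory granules of this kind. The levels in macrophage-like cells were therefore taken as the background of free RNA in the droplets, an assumption that was not tested. In TKO1 the neuroendocrine-like cells exceeded them 12.03-fold for *Pcsk1* (3.32 to 99.5), 4.76-fold for *Cpe* (2.78 to 8.95), 4.05-fold for *Pcsk1n* (2.67 to 6.48) and 3.99-fold for *Pam* (2.16 to 8.34). With its 0 UMIs in the macrophage-like cells set at 3, *Pcsk2* was 3.74-fold higher, with a lower limit of 3.03. At least 4-fold higher were 3 of the 5 genes, as were 6.76% of all genes in TKO1. In TKO2 it was 1 of the 5, *Cpe* at 5.75-fold (3.21 to 11.5), as were 4.58% of all genes. *Pcsk1n* was 3.59-fold higher (2.05 to 6.96) in TKO2. For *Pcsk1* and *Pam* of TKO2, with 1 and 2 UMIs in the macrophage-like cells, the folds were 1.89 (0.327 to 75.7) and 2.05 (0.556 to 17.1), and no difference was detectable at this depth. *Pcsk2* had 7.99 CPM in the neuroendocrine-like cells of TKO2, which is below the 16.4 CPM that 0 UMIs allow in its macrophage-like cells.

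**Figure D2:**
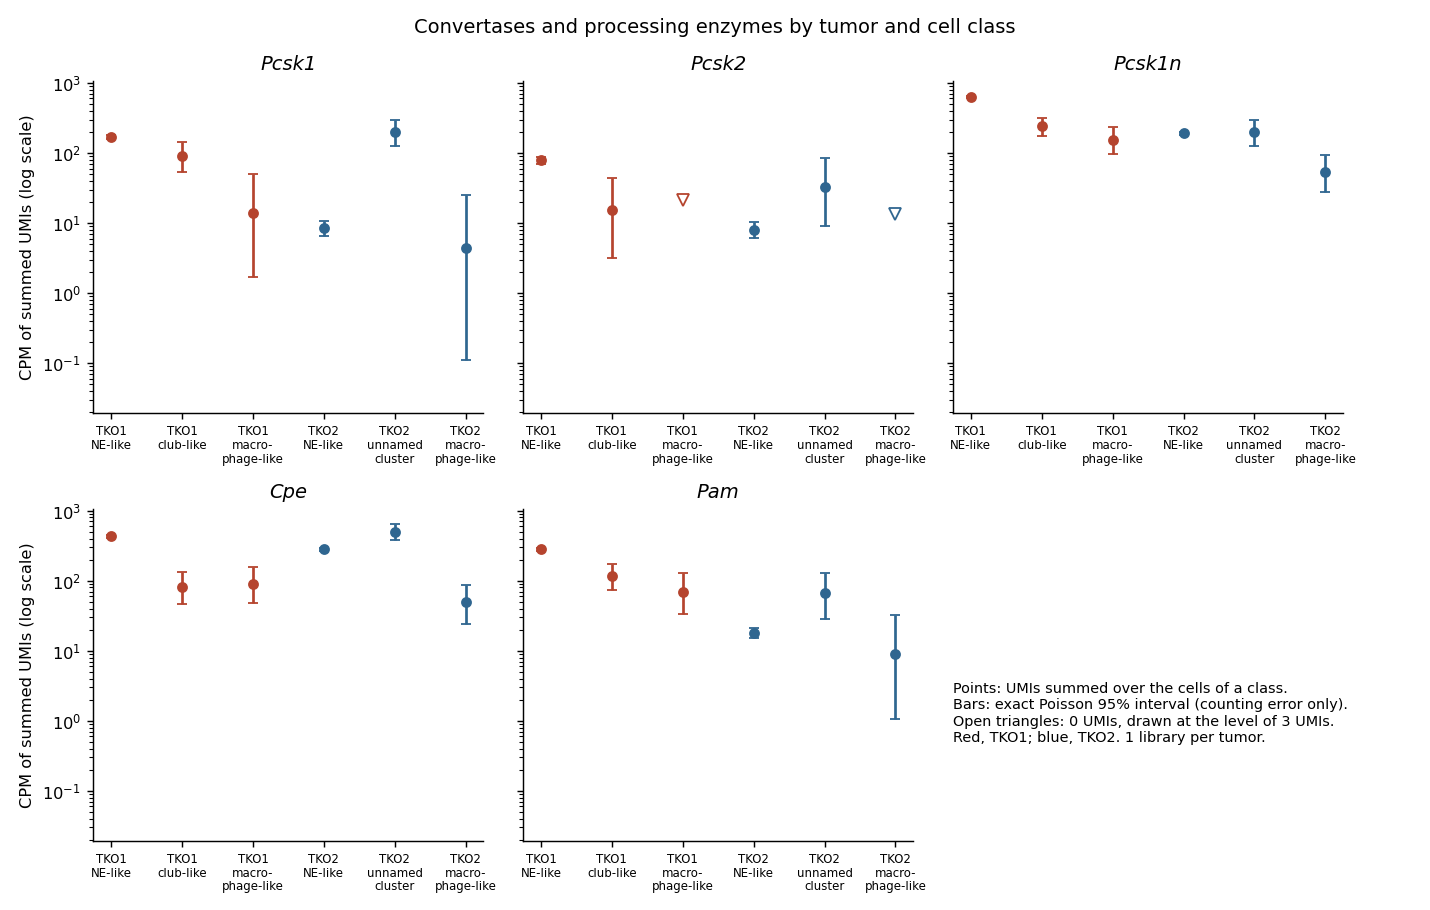
CPM of summed UMIs (log axis) of each gene in the cell classes of TKO1 (red) and TKO2 (blue), with exact Poisson 95% intervals of counting error; an open triangle marks 0 UMIs and is drawn at the level of 3 UMIs. *Pcsk1* falls from 168 to 8.38 CPM between the neuroendocrine-like cells of the tumors, while the unnamed cluster of TKO2 sits at 197 CPM.

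At equal depth per cell, TKO1 also had the larger share of cells with each of the 5 genes. Each cell was thinned to 1000 UMIs, which left 2150 neuroendocrine-like cells of TKO1 (840 shallower cells left out) and 3019 of TKO2 (361 left out). *Pcsk1* was detected in 13.5% of cells of TKO1 (exact Clopper-Pearson interval 12.1 to 15.0) and in 0.961% of TKO2 (0.644 to 1.38). *Pam* was detected in 22.4% (20.6 to 24.2) and 1.69% (1.26 to 2.22), and *Pcsk2* in 6.37% (5.38 to 7.49) and 0.795% (0.510 to 1.18). The share of cells with *Pcsk1n* was 42.6% (40.5 to 44.7) in TKO1 and 16.3% (15.0 to 17.7) in TKO2. *Cpe* had the least separated shares, 33.1% (31.1 to 35.2) and 24.4% (22.9 to 26.0). Without thinning, the share with *Cpe* was 39.9% in TKO1 and 42.3% in TKO2, so its order turned with the deeper cells of TKO2. The unthinned shares of the others were 18.6% and 1.75% for *Pcsk1*, 9.67% and 1.63% for *Pcsk2*, 49.5% and 28.8% for *Pcsk1n*, and 27.6% and 3.64% for *Pam*.

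The background share came from macrophage-like cells thinned alike. In the 82 cells of TKO1 it was 1.22% for *Pcsk1*, 10.98% for *Pcsk1n*, 8.54% for *Cpe* and 6.10% for *Pam*. *Pcsk2* was in 0 of the 82 cells, which allows up to 4.40%. All 5 shares of neuroendocrine-like cells in TKO1 were above these. In the 112 macrophage-like cells of TKO2 the shares were 0.893% for *Pcsk1*, 2.68% for *Pcsk1n*, 1.79% for *Cpe* and 0.893% for *Pam*. The share with *Pcsk2* was 0 there, which allows up to 3.24%. The shares with *Pcsk1*, *Pcsk2* and *Pam* in neuroendocrine-like cells of TKO2 were thus not separable from this background. Before thinning, the median depth was 1212.5 and 1314 UMIs in the neuroendocrine-like and macrophage-like cells of TKO1, and 1983 and 1639 in TKO2.

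Detection of several of the genes in the same cell was rare in TKO2. At 1000 UMIs, 26.4% of cells of TKO1 and 62.0% of TKO2 had a UMI of none of the 5 genes. A UMI of exactly 1 gene was found in 38.7% and 32.2% of cells, of exactly 2 genes in 26.1% and 5.53%, and of exactly 3 genes in 7.95% of TKO1 and in 9 cells of TKO2. In TKO1, 15 cells had 4 of the genes and 1 cell had all 5.

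The genes also varied among the neuroendocrine-like clusters of each tumor, and the convertases and *Pam* of TKO1 were above TKO2 in every cluster. The cluster of TKO1 led by *Dusp26*, *Tspan8* and *Rgs4* had 299.5 CPM of *Pcsk1* (252 to 353), 416 CPM of *Pam* (360 to 478), 565 CPM of *Cpe* (499.7 to 637) and 109.7 CPM of *Pcsk2* (81.9 to 144), the highest of the 7 clusters for each. The cluster led by *Ube2c*, *Ccnb2* and *Plk1*, which are genes of mitosis, had the lowest *Pcsk1* at 83.0 CPM (61.8 to 109) and the lowest *Pam* at 148 CPM (119 to 182). Its *Pcsk2* level was 91.2 CPM (68.9 to 118), so this convertase was not low in it. *Pcsk1n* was lowest, at 268 CPM (216 to 329), in the cluster led by *Nefm*, *Neurog3* and *Nefl*, and was 358 CPM (312 to 409) in the mitotic cluster, while the other 5 clusters had 662 to 755 CPM. *Cpe* ran from 345 to 565 CPM over the 7 clusters and *Pcsk2* from 56.5 to 109.7 CPM.

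In TKO2 the highest convertase levels fell in 1 cluster, led by *Vwf*, *Gm15915* and *Cryba2*. It had 23.2 CPM (14.2 to 35.9) of both *Pcsk1* and *Pcsk2*, from 20 UMIs each, and 29.0 CPM of *Pam* (18.8 to 42.8). The lowest values were 1.99 CPM of *Pcsk1*, from 2 UMIs, and 0.993 CPM of *Pcsk2*, from 1 UMI, both in the cluster led by *Gamt*, *Cdkn1c* and *Mfap2*. *Pam* was lowest at 10.6 CPM (5.78 to 17.7) in the cluster led by *Plk1*, *Ccnb1* and *Ube2c*. *Pcsk1n* ran from 153 to 283 CPM and *Cpe* from 217 to 327 CPM over the 8 clusters, and both were highest in the cluster led by *Spp1*. The lowest cluster of TKO1 exceeded the highest of TKO2 by 5.10-fold for *Pam*, 3.58-fold for *Pcsk1* and 2.43-fold for *Pcsk2*, each more than the shift of all genes. The gap of *Cpe* was 1.05-fold, less than that shift, and the ranges of *Pcsk1n* overlapped. Clusters were found from these same cells, so a difference between clusters of 1 tumor is a description.

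**Figure D3:**
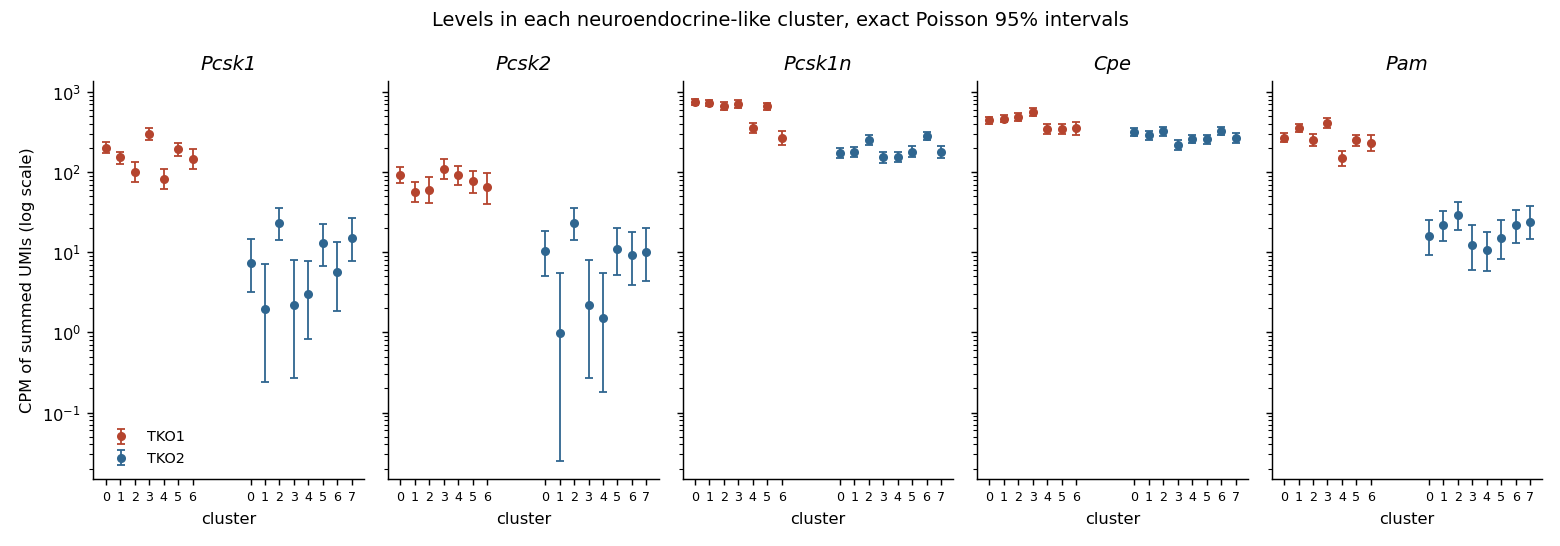
CPM of each gene (log axis) in each neuroendocrine-like cluster of TKO1 (red, 7 clusters) and TKO2 (blue, 8 clusters), with exact Poisson 95% intervals of counting error. For *Pam*, *Pcsk1* and *Pcsk2* the red points all lie above the blue, with the nearest pair 5.10-fold, 3.58-fold and 2.43-fold apart, while those of *Cpe* are 1.05-fold apart and those of *Pcsk1n* overlap.

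The unnamed cluster of TKO2 had a different profile from the other cells of its tumor. Its *Pcsk1* level was 197 CPM (126 to 293, 24 UMIs), which is 23.5-fold (14.1 to 38.1) that of the neuroendocrine-like cells of TKO2. *Pcsk2* was 32.9 CPM (4.11-fold, 1.09 to 11.1, 4 UMIs), *Pam* 65.7 CPM (3.62-fold, 1.53 to 7.32) and *Cpe* 493 CPM (1.75-fold, 1.33 to 2.27). *Pcsk1n* was at 197 CPM, and its ratio to the neuroendocrine-like cells was 1.03 (0.659 to 1.54). The cluster's *Pcsk1* UMIs came from 19 of the 67 cells. All 19 had a UMI of *Calca*, the precursor of calcitonin gene-related peptide, as had 50 of the 67 cells. Thinning to 1000 UMIs also left 50 cells of the cluster, chosen by depth and not by *Calca*. Of these, 5 had a UMI of *Pcsk1* (10%, 3.33 to 21.8). The share at this depth was 0.961% in neuroendocrine-like cells of TKO2 and 13.5% in those of TKO1.

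A split of the unnamed cluster by *Calca* was made after these values were seen. The 50 cells with *Calca* had 258 CPM of *Pcsk1* (165 to 383) and 601 CPM of *Cpe* (454 to 780). The 17 cells without it had 0 UMIs of *Pcsk1*, which allows up to 129 CPM. Their level of *Cpe* was 140.3 CPM (38.2 to 359) from 4 UMIs. *Pcsk1n* was 139 CPM (74.3 to 239) with *Calca* and 386 CPM (193 to 690.5) without it, whose intervals overlap. *Pam* was 64.4 CPM (23.6 to 140.1) with *Calca* and 70.2 CPM (8.50 to 253) without it, and *Pcsk2* was 42.9 CPM (11.7 to 109.9) from 4 UMIs against 0 UMIs. *Scgb1a1*, the secretoglobin of club cells, was detected in 6 of the 50 cells, but at a summed level of 24745 CPM, against 18.2 CPM in the neuroendocrine-like cells of TKO2. *Mycn* was detected in 28.0% of the 50 cells at 1084 CPM, against 86.4% and 2880 CPM in the neuroendocrine-like cells and 28.9% and 710 CPM in the macrophage-like cells of TKO2. Of the 50 barcodes, 1 is shared with the library of TKO1. The part of doublets and free RNA in these values was not tested.

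Peptide precursors and other processing genes were then set beside the 5 genes. The other processing genes are given first, then the precursors and the granule proteins. Of 16 other processing and helper genes, 15 had at least 10 UMIs, and relative to the median of all genes 3 were at least 2-fold higher in TKO1, 3 were at least 2-fold higher in TKO2 and 9 lay between. These counts are near the 23.2% and 18.7% of all genes. *Pcsk6* and *Qpct* passed the minimum of 10 UMIs only through TKO2, where they are high, and *Pcsk5* only through the sum of both tumors. The median relative log2 difference of the 15 genes was 0.13. Higher in TKO1 were the general convertases *Furin*, at 17.0 and 6.44 CPM, and *Pcsk5*, at 2.13 and 0.644 CPM from 9 and 5 UMIs with a fold interval of 0.994 to 12.5 that includes 1, and the Golgi carboxypeptidase *Cpd*, at 44.2 and 16.1 CPM. Higher in TKO2 were *Pcsk4*, at 3.55 and 9.92 CPM, *Pcsk6*, at 1.89 and 5.03 CPM, and *Qpct*, a glutaminyl cyclase, at 2.13 and 7.22 CPM. *Scg5*, which encodes the PC2 chaperone 7B2, had 427 CPM in TKO1 and 167 CPM in TKO2, which is 2.56-fold (2.38 to 2.75) and 0.98 on the relative log2 scale. Its partner *Pcsk2* differed 9.83-fold. *Furin* was also higher in macrophage-like cells, with 69.9 CPM in TKO1 and 22.2 CPM in TKO2.

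Of 19 precursors of peptides that carry an amide, 9 had at least 10 UMIs over both tumors and 10 did not. *Calcb*, *Gal* and *Pyy* passed this minimum only through TKO1, where they are high, so the values of the precursors are given one by one, with no count. *Calca* had 16944 CPM in TKO1 and 17.5 CPM in TKO2, a 967-fold difference (817 to 1152). The value of TKO2 is below the 75.5 CPM (44.0 to 121) of its macrophage-like cells, which came from 4 cells. The part of free RNA in this fold was not tested. *Iapp* had 44.2 and 13.5 CPM, *Adm* 27.2 and 9.67 CPM, *Nmb* 10.6 and 1.68 CPM, *Calcb* 4.73 and 0.258 CPM, and *Gal* 3.55 and 0.258 CPM, the last 2 from 2 UMIs each in TKO2. *Pyy* had 6.39 CPM in TKO1 and 0 UMIs in TKO2, which is at least 12.5-fold (exact lower limit). *Grp*, the precursor of gastrin-releasing peptide, went the other way, with 4.49 CPM in TKO1 and 96.2 CPM in TKO2, a 21.4-fold difference. *Pomc*, a classical substrate of both convertases, was also higher in TKO2, at 36.6 against 18.5 CPM. These 2 precursors were higher in the tumor with the lower level of *Pam*.

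Of 9 other precursors, 4 had at least 10 UMIs, among them *Nppb* only through TKO1 and *Nts* only through TKO2. *Igf2* had 97.9 and 1.29 CPM in TKO1 and TKO2, *Nppb* 13.96 and 0.129 CPM (from 1 UMI in TKO2), and *Vgf* 16.8 and 6.06 CPM. *Nts* had 0 UMIs in TKO1 and 2.45 CPM in TKO2, which is 3.45-fold higher in TKO2 with the 0 set at 3 UMIs. The upper limit of its log2 ratio, TKO1 to TKO2, was -1.35. The granule proteins that convertases cleave were all measured, and on the relative scale 4 of 5 were at least 2-fold higher in TKO1, as were 23.2% of all genes. *Chga* differed 9.45-fold (8.73 to 10.2), *Chgb* 5.85-fold (5.20 to 6.58), *Scg2* 5.72-fold (4.99 to 6.58) and *Vgf* 2.77-fold (1.89 to 4.10). *Scg3*, which sorts granins into the granule, differed 1.83-fold (1.61 to 2.07).

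Spread across cells was examined at 1000 UMIs with the Fano factor, the variance over the mean, which is 1 for counting error alone. In TKO1 it was 1.29 for *Pcsk1n*, 1.27 for *Pcsk1*, 1.205 for *Pam*, 1.19 for *Cpe* and 1.08 for *Pcsk2*, against a median of 1.17 over 3558 genes. No cell had more than 8 UMIs of *Pcsk1*, and 4 of 2150 cells had 3 or more, while 254 had 1 and 32 had 2. These few cells weigh heavily in the Fano factor of *Pcsk1*, which was 1.16 at 2000 UMIs per cell. In TKO2, *Pcsk1n* had 1.25 and *Cpe* 1.07, against a median of 1.102 over 2953 genes, and the other 3 genes were under the minimum mean of 0.05 UMIs per cell.

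Correlation between the genes across cells was weak and is given as a description, since cells of 1 tumor share a library and a count of 1 UMI carries little information. In the 2150 cells of TKO1, Pearson's r of log(1 + UMIs) was 0.06 for *Pcsk1n* with *Pam*, 0.06 for *Pcsk1* with *Pcsk1n*, 0.05 for *Pcsk1* with *Pam* and -0.00 for *Pcsk1* with *Pcsk2*. These values depended on depth, since r of *Pcsk1* with *Pcsk1n* was 0.0158 at 500 and 0.00658 at 2000 UMIs per cell, and that of *Pcsk1* with *Pam* was 0.00195 and 0.115. *Pcsk1n* was detected in 49.7% of the cells with *Pcsk1* (43.8 to 55.6) and in 41.5% of those without (39.2 to 43.7). *Pcsk2* was detected in 6.55% of the cells with *Pcsk1* (3.99 to 10.0) and in 6.34% of those without (5.28 to 7.55). The intervals of the convertases' shares overlap almost entirely.

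The genes whose pattern across cells was most like that of *Pcsk1*, *Pcsk1n* and *Pam* in TKO1 were led by *Calca*, with an r of 0.10, 0.21 and 0.15 over 2150 cells. For *Pcsk1*, *Cnot8* followed at 0.094, close to the 0.097 of *Calca*. *Calca* was the fourth for *Cpe* at 0.08, after *Resp18* at 0.11, *Gadd45g* at 0.10 and *Dnaja4* at 0.09. *Resp18*, a protein of endocrine cells, came next after *Calca* for *Pcsk1n* at 0.14 and for *Pam* at 0.13. *Pcsk2* was led by *Ahi1* at 0.09, with no *Calca* among its 5 nearest genes. In TKO2, over 3019 cells, the leading genes were *Cd9* for *Pcsk1* at 0.10, *Surf4* for *Pcsk2* at 0.09, *Ndn* for *Pcsk1n* at 0.09, *Tfap4* for *Pam* at 0.08 and *Degs1* for *Cpe* at 0.06. Only 29, 24 and 51 of these cells had a UMI of *Pcsk1*, *Pcsk2* and *Pam*, so their r values rest on few cells. Each leading gene is the highest of 3558 genes in TKO1 or of 2953 in TKO2, and how high r runs among unrelated genes was not tested.

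Because of the correlations with *Calca* in TKO1, cells of TKO1 were grouped by it at 1000 UMIs, a choice made after the correlations were seen. The cells were cut at the quartiles, so that the low group had at most 7 UMIs of *Calca* (591 cells) and the high group at least 25 (548 cells). The share with *Pcsk1n* was 30.3% (26.6 to 34.2) in the low and 54.9% (50.7 to 59.1) in the high group. The share with *Pam* was 13.5% (10.9 to 16.6) and 28.3% (24.5 to 32.3), and that with *Pcsk1* was 8.80% (6.64 to 11.4) and 18.1% (14.9 to 21.5). The shares with *Cpe* were 30.6% (26.9 to 34.5) and 38.5% (34.4 to 42.7), and those with *Pcsk2* 6.43% (4.59 to 8.72) and 6.20% (4.33 to 8.56). A larger share in the high group was not particular to these genes. It was 52.5% and 86.9% for *Resp18*, 43.3% and 61.1% for *Chga*, and 22.5% and 35.9% for *Scg5*. Mean *Calca* was lowest in the mitotic and the *Nefm* clusters, at 5.96 and 5.98 UMIs per cell. Within the 7 clusters, r of *Calca* was 0.04 to 0.19 with *Pcsk1n* and 0.02 to 0.15 with *Pam*.

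**Figure D4:**
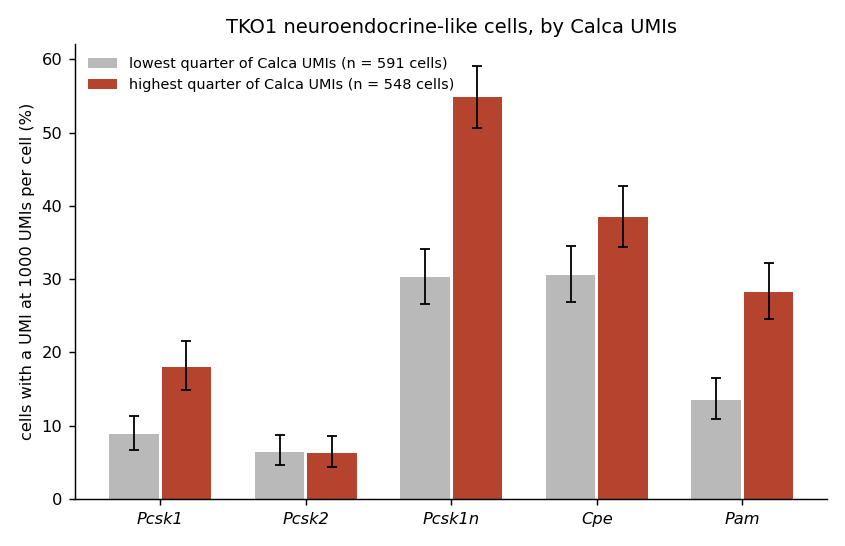
Share of TKO1 neuroendocrine-like cells with a UMI of each gene at 1000 UMIs per cell (y axis, %), for the 591 cells with the fewest (grey) and the 548 with the most (red) *Calca* UMIs, with exact Clopper-Pearson 95% intervals. The bars of *Pcsk1n* stand at 30.3% and 54.9%, those of *Pam* at 13.5% and 28.3%, and those of *Pcsk2* at 6.43% and 6.20%.

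Other markers divided the cells in 3 further ways. In TKO2, the 95 neuroendocrine-like cells with a UMI of *Calca* had 39.5 CPM of *Pcsk2* (18.1 to 74.9, 9 UMIs) against 7.04 CPM (5.27 to 9.21) in the rest, and 307 CPM of *Pcsk1n* (239 to 388) against 188 CPM (178 to 198). *Pcsk1* had 17.5 CPM (4.78 to 44.9) and 8.10 CPM (6.20 to 10.4) there, whose intervals overlap. A UMI of *Calca* itself was in 2.81% of the neuroendocrine-like cells of TKO2 (2.28 to 3.43) and in 3.31% of its macrophage-like cells (0.908 to 8.25). The part of free RNA in this split by *Calca* was not tested. In the 62 cells of TKO2 with a UMI of *Neurod1*, a neuroendocrine factor, *Pcsk1* and *Pcsk2* had 0 UMIs. This allows up to 17.8 CPM and so does not separate these cells from the rest. In TKO1, the 87 cells with at least 3 UMIs of *Mycl* had 81.4 CPM of *Pam* (45.6 to 134) against 288 CPM (272 to 305), and 244 CPM of *Pcsk1n* (178 to 327) against 641 CPM (616 to 666). *Pcsk1* was 81.4 CPM (45.6 to 134) against 172 CPM (160 to 185) in the rest. *Pcsk2* was 76.0 CPM (41.5 to 127) in the cells with *Mycl* against 78.7 CPM (70.3 to 87.8). The cuts were made on unthinned UMIs. Median depth was 1979 UMIs in the cells with *Mycl* and 1198 in the rest. For *Neurod1* it was 2809 and 1970.5, and for *Calca* 2019 and 1983. The overlap of the cells with *Mycl* and the cluster led by *Nefm* was not tested.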

How the data were processed

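Single-cell RNA-seq libraries of 1 tumor from each of 2 TKO mice were used. The authors deposited UMI counts per gene and barcode, whole numbers without normalization. The submitters' processing notes name Cell Ranger, Seurat and mm10, and versions and strand settings are not given in the sources used here. Positions came from GENCODE M21 (GRCm38) and promoters from RefSeq (GRCm38.p6).

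Barcodes with more than 500 detected genes and under 10% mitochondrial UMIs were retained (at most 2.92% in TKO1 and 7.60% in TKO2). Total UMIs of retained cells were 4566658 in TKO1 and 8105281 in TKO2. Each tumor was clustered in Seurat 5.3.0 (R 4.3.3) with a scale of 10000, 1000 variable genes without the 5 described here, 10 components and a resolution of 0.8. Classes other than neuroendocrine needed at least 3 markers at 4-fold over other cells, and neuroendocrine at least 3 at 2-fold over immune-like cells. A non-immune cluster that met both was left unnamed. Scrublet (scanpy 1.11.5) called 0 and 1 doublets, and cells above the 95th percentile of scores were kept and left out as an alternative.

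UMIs were summed per class and divided by its total (CPM). CPM has an exact Poisson interval, the ratio of 2 sums an exact conditional binomial interval and a share a Clopper-Pearson interval, at 95% and for counting error only. A sum of 0 was set at 3 UMIs for folds. Shares, Fano factors and correlations used cells thinned to 1000 UMIs (seed 1). Python 3.11.15, numpy 2.4.6, scipy 1.17.1, pandas 2.3.3 and matplotlib 3.10.9 were used, with edgeR 4.0.16 for TMM factors of the count sums only, and the steps were tested on simulated data. Named genes were the 5 genes, the fixed lists and markers, the 3 leading genes of a cluster and the 5 genes most correlated with each gene. The genes and lists were chosen with earlier results of these data known. No p-value is given, since each tumor has 1 library.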

Additional observations from a re-analysis of the deposited data

Results flagged for a closer look

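Barcodes with 500 or fewer detected genes were left out of the report, and several of the genes had more UMIs in them than a count of 0 allows. In the 1321 such barcodes of TKO1 the levels were 146 CPM for *Pcsk1* (119.5 to 177), 69.6 CPM for *Pcsk2* (51.7 to 91.8), 455 CPM for *Pcsk1n* (407 to 507), 329 CPM for *Cpe* (288 to 373) and 278 CPM for *Pam* (241 to 320). In the 248 such barcodes of TKO2 they were 21.5 CPM for *Pcsk1* (5.85 to 55.0), 107 CPM for *Pcsk1n* (65.6 to 166) and 269 CPM for *Cpe* (199 to 354). What these barcodes hold was not tested.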

How the results depend on the processing

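Every alternative kept the direction of the log2 differences of the 5 genes. Of 128 values recomputed, 92 stayed within their limits and 36 did not. The limits were the counting interval for ratios, 1.5 times the count for counts of genes, and a fixed margin for the median of the list. For Fano factors and r they came from a normal approximation that treats cells as independent, so they are no measure of spread between tumors. With TMM factors the log2 differences were 3.95 for *Pcsk1*, 1.33 for *Pcsk1n*, 0.24 for *Cpe* and 3.56 for *Pam*. In cells with more than 1000 genes they were 1.56 for *Pcsk1n*, 0.45 for *Cpe* and 3.64 for *Pam*. When mitochondrial genes and ribosomal protein genes were taken out of the totals they were 1.501 for *Pcsk1n* and 0.42 for *Cpe*. *Pcsk1* was 3.85 over all retained cells and 3.90 with the unnamed cluster of TKO2 counted as neuroendocrine-like, an alternative chosen after seeing the data. *Pcsk2* was 2.89 as a mean over cells, and *Pcsk1n* 1.61 at a clustering resolution of 0.4. The median relative difference of the other processing genes was 0.28 with a minimum of 50 UMIs and -0.075 with a minimum of 1 UMI, where its sign turned and 1 gene was at least 2-fold higher in TKO1.

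At 2000 UMIs per cell the Fano factors in TKO1 were 1.16 for *Pcsk1*, 1.21 for *Pcsk2* and 1.41 for *Pam*, and in TKO2 1.48 for *Pcsk1n* and 1.15 for *Cpe*. *Pcsk2* of TKO1 had 0.998 at 500 UMIs. Without the highest Scrublet scores, TKO2 had 1.33 for *Pcsk1n* and 1.15 for *Cpe*. In TKO1, r at 2000 UMIs was 0.0608 for *Pcsk1* with *Pcsk2*, 0.112 for *Pcsk1n* with *Pam*, 0.00658 for *Pcsk1* with *Pcsk1n*, 0.115 for *Pcsk1* with *Pam*, 0.263 for *Pcsk1n* with *Calca* and 0.243 for *Pam* with *Calca*. At 500 UMIs it was 0.0158 for *Pcsk1* with *Pcsk1n*, 0.00195 for *Pcsk1* with *Pam*, 0.163 for *Pcsk1n* with *Calca* and 0.0818 for *Pam* with *Calca*. In TKO2, *Pcsk1n* with *Cpe* had 0.0870 at 2000 and 0.00425 at 500 UMIs. The causes of these differences were not tested. Depth limits the values of *Pcsk1*, *Pcsk2* and *Pam* in TKO2, which rest on 65, 62 and 141 UMIs. No paired analysis was possible because each tumor has 1 library, and for the same reason no replicate could be left out.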
